A study of Caenorhabditis elegans with 2 samples.

Results

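Of 10 core autophagy genes of Caenorhabditis elegans, 4 had a PHA-4 peak in the promoter, namely epg-8, lgg-2, lgg-1 and atg-9. Across all 19973 nuclear protein-coding genes the share with a promoter peak was 7.15% (1429 genes). The 10 genes were listed by name, lgg-1, lgg-2, atg-9, epg-8, bec-1, unc-51, atg-13, atg-18, atg-7 and epg-5, because PHA-4 is known to act together with autophagy in the long life of worms on a restricted diet. The rule uses no measured value, but the list was drawn up with earlier results of these data known. Both genes of the ubiquitin-like proteins that coat the autophagosome had peaks, lgg-1 at a pair of separate sites. Of the 10, neither unc-51 nor atg-13 of the initiating kinase complex had one, and epg-5 had no candidate peak at all. Outside the 10, the initiation gene epg-7 had a promoter peak, and epg-9, a partner of ATG-13, had peaks inside the gene.

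Autophagy encloses parts of the cytoplasm in a double membrane and delivers them to the lysosome. A kinase complex starts the process, a lipid kinase complex marks the membrane, lipid is supplied to the growing sheet, ubiquitin-like proteins are attached to it, and the closed vesicle fuses with the lysosome. PHA-4 is the worm's FoxA factor, a forkhead protein that specifies the pharynx and is also present in the intestine and other tissues later in life. Forkhead proteins bind short sequences related to TGTTTAC.

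Chromatin immunoprecipitation was done on whole L4 larvae aged 48 h, in 2 biological replicates that formed 1 group. The strain, RW12220, carried the CRISPR insertion st12220, which adds TY1, EGFP and 3xFLAG to the endogenous pha-4 on chromosome V, so both replicates express the tagged protein. The worms had been synchronised by bleaching and starvation as L1 larvae. The precipitation used an antibody to GFP, per the sample descriptions, whereas the antibody label names pha-4. No untagged worms, other ages or diets were analysed here, so no conditions could be compared. In whole worms, strong binding in a few cells and weak binding in many cannot be told apart, and the tissue of a peak is unknown.

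The deposited peak lists gave each peak a summit, a signal value and an irreproducible discovery rate (IDR). The value is the global IDR, an estimate of the share of irreproducible peaks among all those ranked at least as high. It is not the chance that a given peak fails to recur. A main list of 2920 nuclear peaks came from both replicates at an IDR of at most 0.01, and a conservative list held 1555. A place in the main list does not mean that this limit was met between the replicates. In the ranking of the replicates against each other, the main-list peak upstream of atg-7 had an IDR of 0.0239. The lists of replicate 1 and replicate 2 held 2114 and 1643 nuclear peaks at the same limit. Longer ranked lists of all candidates, 81354 for the pooled reads, showed what lay below that limit. For a promoter peak the summit had to lie between 1000 bp upstream and 500 bp downstream of the start of the gene, as annotated in Ensembl release 115. The signal scale is the peak caller's and is set per list, so each replicate is described by the share of candidates in its own ranked list that were weaker. These ranked lists held 84912 candidates in replicate 1 and 47072 in replicate 2, and places in lists of such different length show no change between replicates. Read depth is unknown.

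In the conservative list the same 4 genes had promoter peaks, against 4.15% of all genes. The replicate 1 list also held these 4, against 5.53%, whereas the replicate 2 list held lgg-1 and lgg-2, against 3.85%. Counting peaks anywhere over the gene or its window in the main list gave 5 of 10, against 11.6%, with atg-7 added. Candidates of any strength were common, present in the window of 9 of the 10 members and of 52.0% of all genes. The strongest candidate per member had a median signal of 68.1 in the pooled list over those 9, and 38.0 over the 10383 genes that had one.

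**Figure D1:**
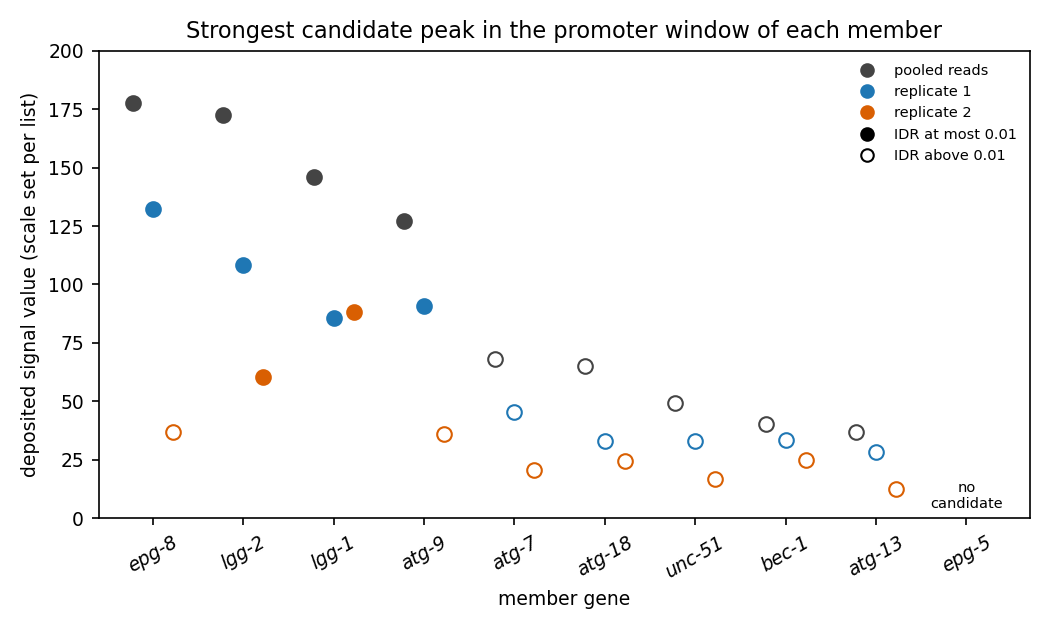
Signal value (vertical axis, scale set per list) of the strongest candidate peak in the promoter window of each member (horizontal axis) in the pooled reads, replicate 1 and replicate 2, with filled circles at an IDR of at most 0.01. In the pooled list 4 members lie between 127 and 177 and are filled, 5 lie between 37.0 and 68.1 and are open, and epg-5 has no candidate; the strongest lgg-1 candidate is a different site in replicate 1 (214 bp upstream) than in replicate 2 (866 bp upstream).

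The kinase complex that starts autophagy was represented by unc-51, the worm's ULK kinase (WBGene00006786, chromosome V, 19995986 to 20004485, minus strand), and by atg-13, its binding partner (WBGene00017045, chromosome III, 8155947 to 8158190, minus strand). Neither had a peak over the gene or its window in the main list or in either replicate list. The strongest promoter candidate of unc-51 lay 193 bp upstream, with a signal of 49.1 in the pooled reads, 33.2 in replicate 1 and 16.8 in replicate 2. Its IDR in the pooled list was 0.241. For atg-13 the strongest candidate lay 338 bp upstream, with a signal of 37.0 in the pooled reads and 28.3 in replicate 1, and replicate 2 had no candidate within 100 bp. Its pooled IDR was 0.832, and its pooled signal was close to 38.0, the median of all genes with a promoter candidate.

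The lipid kinase complex that nucleates the membrane gave the strongest promoter peak among the members and also a gene without one. EPG-8, the coiled-coil subunit related to mammalian ATG14, is encoded by epg-8 (WBGene00013695, chromosome I, 9931870 to 9934290, minus strand). Its peak had its summit 247 bp upstream, in the 346 bp that separate epg-8 from dsbn-1 on the same strand. The signal was 177 in the main list, rank 591 of 2920. In replicate 1 the signal was 132, above 99.4% of that replicate's candidates, with an IDR of 0.00013. In replicate 2 it was 36.8, above 95.3%, with an IDR of 0.0342, so only the list of replicate 1 held the site. Of the 1429 genes with a promoter peak, 75.6% had a weaker strongest peak than epg-8. Nearest to it in that order were cyp-43A1 (178) and Y7A9D.1 (178) above and gsa-1 (177) and Y69A2AR.31 (177) below, a likeness in 1 value of 1 list.

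BEC-1, the Beclin 1 homologue of the same complex, is encoded by bec-1 (WBGene00000247, chromosome IV, 5661141 to 5664425, minus strand). Its window held 4 candidates in the pooled list, the strongest 584 bp upstream with a signal of 40.1 and an IDR of 0.698. At that site the signal was 33.5 in replicate 1 and 7.53 in replicate 2. It was the only one of the 9 strongest promoter candidates of members with a small noncoding RNA gene closer than 250 bp, at 71 bp from the snoRNA gene T19E7.29. In replicate 2 the strongest bec-1 candidate was elsewhere, 478 bp downstream of the start, with a signal of 24.8 and an IDR of 0.402.

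Of the 2 members that serve lipid supply to the growing membrane, atg-9 had a promoter peak and atg-18 did not. ATG-9 is the transmembrane protein of the vesicles that seed the membrane (WBGene00020706, chromosome V, 349385 to 359658, plus strand). Its summit lay 143 bp upstream, with a signal of 127 in the main list, rank 1050. Replicate 1 gave 91.0, above 98.9% of its candidates, with an IDR of 0.000293, and replicate 2 gave 35.8, above 95.1%, with an IDR of 0.0248. As for epg-8, the site passed the limit in replicate 1 and fell short of it in replicate 2. Ranked between the replicates, both sites passed it, with an IDR of 0.00209 at epg-8 and 0.0036 at atg-9. The atg-9 gene is long, 10274 bp, and held 25 candidates in the pooled list, but its promoter peak was the only one in the main list.

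ATG-18, a WIPI-family protein that binds the lipid made by the nucleation complex, is encoded by atg-18 (WBGene00018294, chromosome V, 8629174 to 8631327, minus strand). Its strongest candidate lay 179 bp upstream, a position much like that at atg-9, with a signal of 65.2 and an IDR of 0.0399. Replicate 1 gave 32.9 and replicate 2 gave 24.6 at that site, above 85.8% and 88.5% of their candidates. At a looser IDR of at most 0.05 in the pooled list, atg-18 and atg-7 would join the 4 genes, giving 6 of 10 against 10.6% of all genes. Ranked between the replicates, the same atg-18 site had an IDR of 0.127 and the strongest promoter candidate of atg-7 one of 0.72.

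At the conjugation step lgg-1 and lgg-2, alone among the members, had a promoter peak in both replicate lists, whereas atg-7 had none in either. LGG-1 and LGG-2 are the worm's ubiquitin-like proteins of the GABARAP and LC3 families, which are linked to lipid on the membrane and serve as the usual marks of autophagosomes. The gene lgg-2 (WBGene00002981, chromosome IV, 10934196 to 10935903, minus strand) had its promoter summit 304 bp upstream, in 1550 bp between it and fic-1 on the other strand. Its main-list signal was 172, rank 621. Replicate 1 gave 108, above 99.2% of its candidates, with an IDR of 0.000206, and replicate 2 gave 60.4, above 98.2%, with an IDR of 0.00079. It was the only member summit in both replicate lists at the same site. Ranked between the replicates, the lgg-2 site had an IDR of 0.000666.

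The short gene lgg-1 (WBGene00002980, chromosome II, 6346960 to 6347719, minus strand, 760 bp) had a promoter peak in both replicate lists, but not the same peak. The distal summit lay 873 bp upstream with a main-list signal of 146. It had a signal of 72.3 in replicate 1 and 88.2 in replicate 2, above 98.3% and 99.1% of their candidates, and an IDR of 0.214 and 0.000134. The proximal summit lay 215 bp upstream with a main-list signal of 136. There replicate 1 gave 85.7 and replicate 2 gave 38.3, above 98.8% and 95.6%, with an IDR of 0.00111 and 0.0448. The proximal site was thus in the replicate 1 list alone and the distal site in the replicate 2 list alone, and both were in the conservative list. Ranked between the replicates, their IDR was 0.000917 (distal) and 0.00334 (proximal).

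ATG-7, the enzyme that activates the ubiquitin-like proteins for conjugation, is encoded by atg-7 (WBGene00010882, chromosome IV, 11078682 to 11081055, minus strand). The main list held a peak with its summit 1013 bp upstream, just outside the promoter window, with a signal of 85.8 and an IDR of 0.00694. That summit lay in a coding exon of the neighbour let-70, a ubiquitin-conjugating enzyme gene on the same strand that ends 30 bp before atg-7 starts, and 185 bp downstream of the start of let-70, inside the window of that gene. Replicate 1 gave 48.0 and replicate 2 gave 29.1 there, and neither replicate list held it. To which of these genes the peak relates cannot be told apart from position. Within the window of atg-7 the strongest candidate lay 144 bp downstream of the start, in an intron, with a signal of 68.1 and an IDR of 0.0115. Replicate 1 gave 45.5 with an IDR of 0.0177 and replicate 2 gave 6.72 with an IDR of 0.663. Ranked between the replicates, that candidate had an IDR of 0.72.

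**Figure D2:**
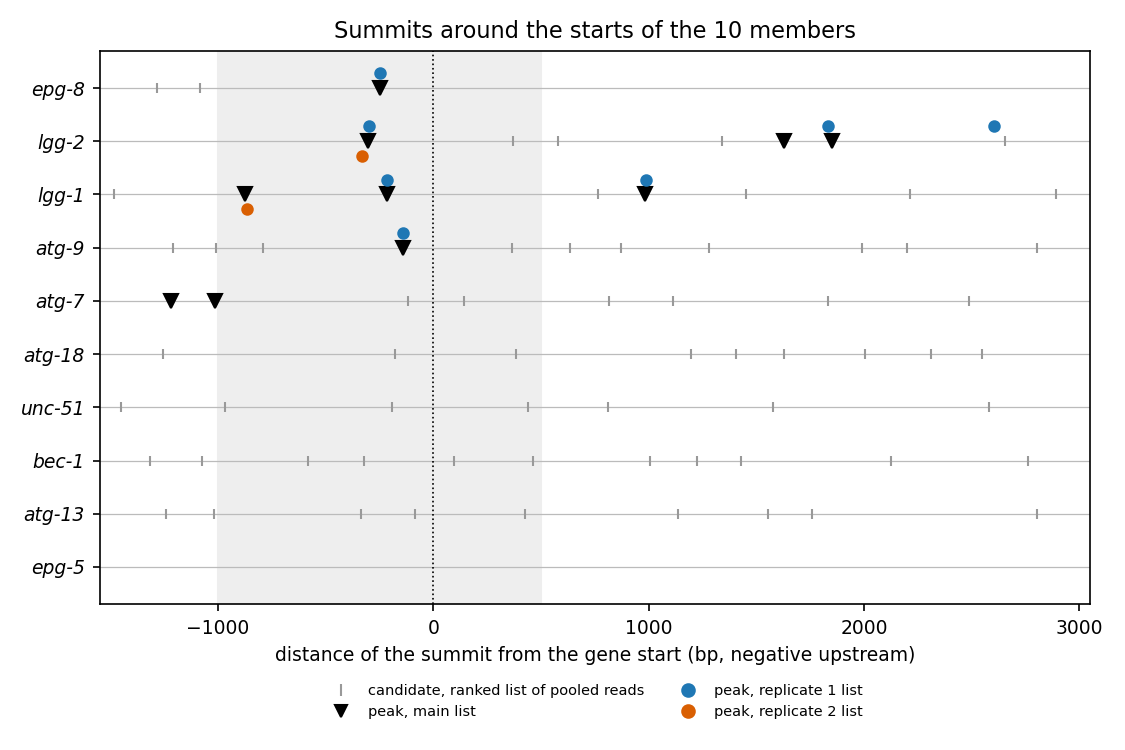
Distance of each summit from the gene start (horizontal axis, bp, negative upstream) for the 10 members (vertical axis), with the promoter window shaded, candidates of the pooled list as ticks, main-list peaks as triangles and replicate peaks as circles. The 5 called promoter summits lie 143 to 873 bp upstream; summits past the end of a short gene, as for lgg-1 (760 bp long) and lgg-2 (1708 bp), belong to the neighbouring sequence.

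At the far end of lgg-2 the main list held a second peak, with its summit in the 3′ UTR, 79 bp before the gene end, and a signal of 2.86. Its neighbour, 146 bp past the gene end in a coding exon of lsm-7, an Sm-like RNA-binding protein gene, had a signal of 133. Both carried the same pair of signals for the 2 inputs ranked, 58.9 and 82.4, and nearly the same −log10 IDR. Such sharing held for 300 of the 2920 main-list peaks (10.3%). The low peak adds nothing to the count of 5, since lgg-2 was already counted.

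EPG-5, a tethering factor for fusion with the lysosome, is encoded by epg-5 (WBGene00016968, chromosome II, 6598344 to 6609365, minus strand), the longest member at 11022 bp. No candidate of any strength lay over it or its window in any of the 4 ranked lists. The gene lies in a stretch of 92404 bp without a candidate summit in the pooled list, whose median distance between neighbouring summits was 586 bp. Only 18 of 81348 such distances were as long. The stretch spans 20 gene starts, so the lack of candidates is not particular to epg-5. In replicate 2 the stretch around epg-5 was shorter, 19612 bp. Read coverage was not among the files used here, so a lack of binding and a lack of usable reads cannot be told apart.

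In the replicates' ranked lists, of 84912 and 47072 candidates, epg-8 held places 484 and 2198, atg-9 places 930 and 2323, and lgg-2 places 698 and 836. The distal lgg-1 site held places 1437 and 404 and the proximal one 1052 and 2054. The distal lgg-1 site was thus the only member summit nearer to the top in replicate 2, and lgg-2 stood at much the same place in both. Over the 1250 genes whose strongest promoter peak had a candidate in both replicates, the median place was 1213.5 in replicate 1 and 1704 in replicate 2, and 874 (69.9%) stood at a later place in replicate 2. As shares of lists of unequal length, 1054 (84.3%) had a smaller share of weaker candidates in replicate 2, with medians of 98.6% and 96.4%. The 4 member summits at a later place in replicate 2 thus followed the common pattern, and no difference in binding is read from it. The replicates also differed in the base composition of their peaks. Counting 100 bp to each side of a summit, mean GC content was 42.1% ± 7.45 (SD, 2114 peaks) in the replicate 1 list and 49.0% ± 8.20 (SD, 1643 peaks) in that of replicate 2. At the member summits it was 50.2% at the distal lgg-1 site, 49.8% at atg-9, 45.8% at the proximal lgg-1 site, 44.8% at lgg-2 and 36.8% at epg-8. The part of base composition in the replicate differences was not tested.

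**Figure D3:**
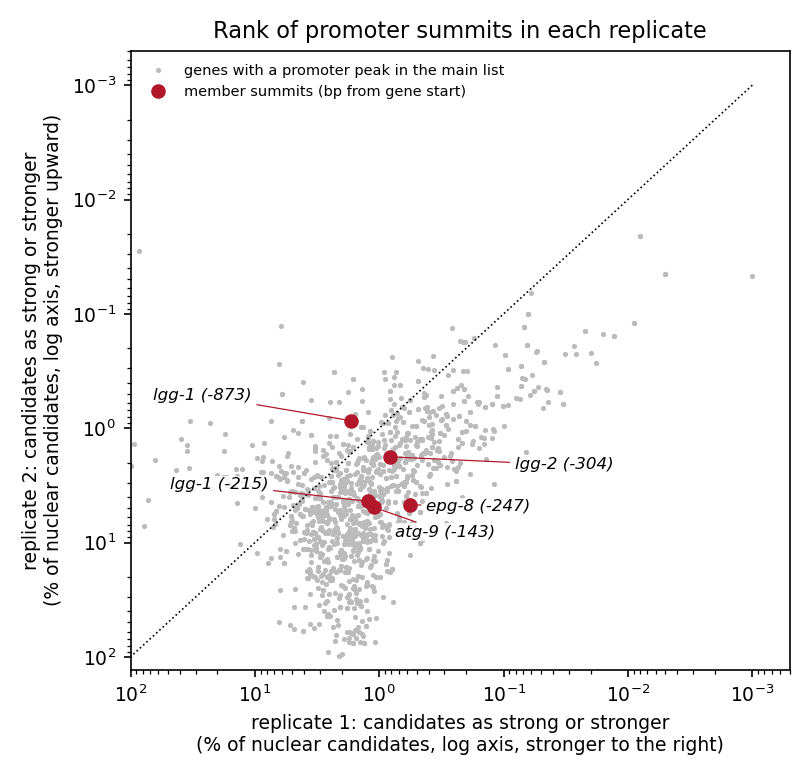
Share of candidates as strong as or stronger than the strongest promoter summit of each of 1250 genes in replicate 1 (horizontal axis, %, log scale, stronger to the right) and replicate 2 (vertical axis, %, log scale, stronger upward), with the 5 member summits in red and the dotted line marking equal shares. The distal lgg-1 summit lies above the line and the other 4 member summits lie below it among the bulk of genes. The lists held 84912 and 47072 candidates, and an equal place is a larger share of the shorter list. By place, 874 of the 1250 genes (69.9%) also stood later in replicate 2. The part of list length was not tested.

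Of the 5 summits, 4 lay 143 to 304 bp upstream of the start, as 58.1% of the 1429 strongest promoter summits lay within 400 bp upstream, and the distal lgg-1 site lay farther out, at 873 bp. All 5 lay upstream of the start in sequence outside any gene, and 86.6% of the strongest promoter summits of all genes lay upstream, with a median of 233 bp. No member summit fell in the promoter window of another protein-coding gene, and the nearest small noncoding RNA gene was at least 3927 bp away. Signals were also within the usual range: 58.8% of genes with a promoter peak had a weaker one than atg-9, 66.6% a weaker one than lgg-1 and 74.8% a weaker one than lgg-2, with a median signal of 112.5.

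The sequence 100 bp to each side of the called summits is shown for atg-9, lgg-1 and lgg-2, because these are the sites of their called peaks. Sequences are from RefSeq on the ce11 build, 5′ to 3′ on the strand of the gene, with the summit in the middle. Capitals mark matches to the motifs searched, on either strand. These were the forkhead sequence TGTTTAC and its variants TGTTTGC as well as TATTTAC plus the last searched forkhead form TATTTGC. Also searched were an E-box written CACGTG, the GATA-type sequence TGATAA, a pyrimidine repeat TCTCTC and another E-box CACATG. The latter reads CATGTG on the other strand. The repeat and the second E-box were added after these sequences had been read.
lgg-1, summit 873 bp upstream (chrII:6348492-6348692, minus strand): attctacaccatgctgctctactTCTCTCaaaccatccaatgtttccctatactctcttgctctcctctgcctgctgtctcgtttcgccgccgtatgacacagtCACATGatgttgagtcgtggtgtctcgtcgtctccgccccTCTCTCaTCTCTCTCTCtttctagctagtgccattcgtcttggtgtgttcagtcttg
lgg-1, summit 215 bp upstream (chrII:6347834-6348034, minus strand): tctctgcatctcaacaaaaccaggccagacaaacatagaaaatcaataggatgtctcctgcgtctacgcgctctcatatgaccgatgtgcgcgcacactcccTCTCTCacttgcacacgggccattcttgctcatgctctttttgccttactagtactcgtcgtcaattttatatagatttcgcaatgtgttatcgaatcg
lgg-2, summit 304 bp upstream (chrIV:10936107-10936307, minus strand): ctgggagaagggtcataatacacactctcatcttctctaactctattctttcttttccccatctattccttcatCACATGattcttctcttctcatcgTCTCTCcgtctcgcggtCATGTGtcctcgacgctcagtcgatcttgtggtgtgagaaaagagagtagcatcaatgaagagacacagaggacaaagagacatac
atg-9, summit 143 bp upstream (chrV:349142-349342, plus strand): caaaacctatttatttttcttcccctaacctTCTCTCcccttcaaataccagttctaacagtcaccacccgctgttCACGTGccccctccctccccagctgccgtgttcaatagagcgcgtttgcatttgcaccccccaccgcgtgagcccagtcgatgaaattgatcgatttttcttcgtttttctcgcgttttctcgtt

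None of the 4 forkhead sequences searched was found in these 4 windows. Forms that differ from them only in the last base were not searched. The atg-9 window and, on the other strand, the proximal lgg-1 window each hold such a form. The counts given here cover the 4 searched forms alone. At epg-8, whose sequence is not shown, TGTTTGC was present on the other strand, starting 15 bp downstream of the summit. Within 50 bp of the summit, any of the 4 was found at 1 of the 5 member summits and at 8.46% of all main-list summits. At equal width, in windows of 201 bp, 15.6% of main-list summits and 17% of the stretches before all gene starts held any of them. Taken singly at that width, TGTTTAC was found in 3.53% and 3.49%, TGTTTGC in 6.64% and 5.44%, TATTTAC in 3.15% and 5.06%, and TATTTGC in 3.29% and 4.40%. In the longer promoters of 300 bp, from 250 bp before to 50 bp after the gene start, any of them was found for epg-8 and epg-5 among the 10 members and in 22.6% of all promoters. CACGTG, the site of HLH-30 and other helix-loop-helix factors, started 24 bp before the atg-9 summit and was found, at the width of 201 bp, at 7.02% of main-list summits and in 4.23% of the stretches before gene starts. TGATAA, the sequence bound by GATA factors of the intestine, started 85 bp before the epg-8 summit on the other strand and was found at 17.3% of main-list summits and in 22.8% of the stretches before gene starts at that width. A lack of these letters in a window says nothing of whether the factor binds there.

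TCTCTC was present on the gene's strand in all 5 member windows of 201 bp, once or in runs, from 96 bp before the epg-8 summit to 55 bp after the distal lgg-1 summit. It overlaps itself, so that a run such as that at the distal lgg-1 site holds several matches. On either strand it was found in 29.2% of the main-list summit windows, in 28.6% of the strongest promoter summits per gene, and in 16.4% of the 201 bp stretches before all gene starts. On the gene's strand alone it was found in 17.3% of the strongest promoter summits. Of the 5 candidates of members without a promoter peak, 1 held it, that of atg-18. CACATG, an E-box of another kind, was found at the distal lgg-1 site, starting 4 bp after the summit, and at lgg-2, starting 26 bp before it and, on the other strand, 15 bp after it. It occurred in 9.52% of main-list windows and 6.59% of the stretches before gene starts. Both motifs were picked because they had been seen in these windows, so their presence there is a description only.

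The rest of the pathway was read from a list of 32 other autophagy genes ordered by step. Of these, 5 had a promoter peak in the main list, against 7.15% of all genes. The replicate 1 list held 5 of them, against 5.53%, and the replicate 2 list held 3, against 3.85%. The strongest was at epg-7, whose product is a scaffold for selective cargo at the initiation step, with a summit 161 bp upstream and a signal of 233. Its signal was 121 in replicate 1 and 107 in replicate 2, above 99.3% and 99.5% of their candidates. The next was at vps-39, a subunit of the tethering complex for fusion, 513 bp upstream, with a signal of 216, and 126 and 98.4 in the replicates. Both sites exceeded each of the member summits in the main list and were in both replicate lists.

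The other 3 called genes were not called in replicate 2. At epg-4, which encodes an endoplasmic reticulum protein related to mammalian EI24, the summit lay 115 bp upstream with a signal of 127, and 105 and 22.6 in replicates 1 and 2. At rab-7, the small GTPase of late endosomes, the summit lay 812 bp upstream with a signal of 113, and 112 and 20.7 in the replicates, and it also fell in the windows of W03C9.5 and mex-1. The fifth, named after its value was seen, was epg-6, a WIPI-family gene, with a summit in an intron 294 bp downstream of the start and a signal of 108, and 77.9 and 30.8 in the replicates. The epg-6 site was in neither replicate list, and those of epg-4 and rab-7 were in the list of replicate 1. Of these 3 sites, only that of epg-6 was in the conservative list. Called in 1 replicate list and not in the main list, and named after their values were seen, were sqst-1, the gene of a cargo receptor (replicate 1), and vps-41, another tethering subunit (replicate 2). Among genes without a promoter peak, epg-9, a partner of ATG-13, had a strong peak inside the gene, 1064 bp from the start with a signal of 283. The lipid transfer gene atg-2 had peaks of 71.5 and 5.91 inside the gene, and the lipid kinase genes vps-34 and vps-15 had none.

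By step, members and other autophagy genes together had promoter peaks at 1 of 4 initiation genes, 1 of 4 nucleation genes, 3 of 6 membrane supply genes, 2 of 11 conjugation genes, 0 of 6 cargo genes and 2 of 11 fusion genes, 9 of 42 in all, against 7.15% of all genes. The list of replicate 2 held 0 of the 6 membrane supply genes, 2 conjugation genes, 2 fusion genes and 1 initiation gene, against 3.85% of all genes. The order of the steps thus did not hold in that list, and with so few genes per step no order is read from either list. At the conjugation step lgg-1 and lgg-2 were the called genes, and atg-7 and all 8 genes of that step outside the members were not, lgg-3 and the atg-4 proteases included. Of 9 regulators of autophagy, hlh-30, which encodes the TFEB homologue, was the 1 with a promoter peak, against the same 7.15%, with a signal of 58.7 and its summit 211 bp upstream. It was in neither replicate list. The replicates gave 28.4 and 43.0 at that site. Over the gene or its window 6 of the 9 regulators had a peak, against 11.6% of all genes, and these genes are often long: hlh-30 alone held 4 further peaks, the strongest 6621 bp inside the gene with a signal of 212. Without a promoter peak were among others mxl-3, let-363, daf-15 and raga-1.

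**Figure D4:**
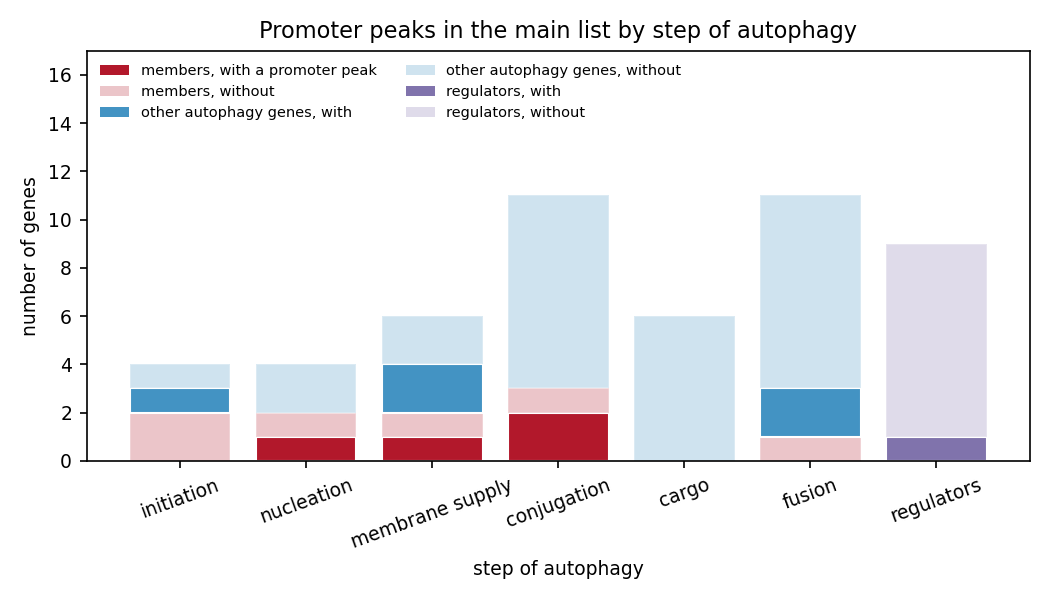
Number of genes (vertical axis) at each step of autophagy (horizontal axis), with dark segments for genes with a promoter peak in the main list and pale segments for those without, for the 10 members, 32 other autophagy genes and 9 regulators. In the main list peaks are present at 3 of 6 membrane supply genes, the highest share of any step, and at 0 of 6 cargo genes. The share of all genes there was 7.15%, so with 6 genes a count of 0 is not read as a difference between steps. The list of replicate 2 held 0 of the 6 membrane supply genes, against 3.85% of all genes.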

How the data were processed

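PHA-4 binding was measured by chromatin immunoprecipitation and sequencing in 2 biological replicates of 1 group, with fragments of 200 to 800 bp. The authors deposited IDR peak lists on ce11 built with filtered alignments and control reads, per the notes deposited with them; the aligner, peak caller and settings are not given in the sources used here. The signal value of a peak is the authors' own, with a scale set per list, and the deposited ranked lists add the IDR as −log10 and a signal score for each of the 2 inputs ranked. In the deposited main list the lowest −log10 IDR is 2. Replicate values come from each replicate's own ranked list, at a candidate summit within 100 bp. The notes do not say which ranked list of both replicates is which. In 1 of them 89.6% of first-input and 58.4% of second-input values recur exactly in the ranked lists of replicates 1 and 2, so it was read as ranking the replicates against each other. In the other at most 2.34% recur, and it was read as made from pooled reads.

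Genes and starts were those of Ensembl release 115 (WBcel235, the same coordinates as ce11), mitochondrial peaks were left out, and sequence came from RefSeq; 99.9% of 31805 annotated start codons read ATG there. Overlaps, ranks and motif matches were computed in Python 3.11.15 and plotted with matplotlib 3.10.9. The peak assignment was tested on simulated data. Depth is unknown, so no interval is given, and with 1 group no test between conditions was made.

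The members and gene lists were chosen with earlier results of these data known. Named genes were all 10 members, other genes whose window holds a member summit, up to 4 called genes by signal and up to 4 uncalled genes per list, and the 2 neighbours above and below epg-8 in promoter signal. Alternatives were the conservative list, each replicate list, a looser IDR, narrower and wider windows, overlap in place of summit, any transcript start and the nearest gene. TCTCTC and CACATG were added after the sequences had been seen, as were the equal-width forkhead counts and the places in the ranked lists after the values.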

Additional observations from a re-analysis of the deposited data

How the results depend on the processing

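Of 45 values recomputed under alternatives, 26 stayed within the limits set for no change and 19 moved. A change of direction was not scored. Each replicate list alone gave 2 to 4 members with a promoter peak and 2 to 4 with a peak over the gene or window, 3 to 5 other autophagy genes, and 769 to 1104 of all genes. The share of the thresholded list weaker than a member's promoter peak was 79.8% for epg-8, 78.7% for lgg-2, 71.3% for lgg-1 and 64.0% for atg-9 in the main list. It was 52.1 to 78.4% for lgg-1 and 53.8 to 68.2% for lgg-2 in the replicate lists, and 77.9% for epg-8 and 57.6% for atg-9 in that of replicate 1, the only replicate list that holds them. In the conservative list it was 64.1%, 62.2%, 49.0% and 37.8% in the same order as in the main list, by construction, since weaker peaks are absent there; that list gave 829 of all genes and 3 other autophagy genes. In the narrow window (500 bp upstream to 200 bp downstream), 2 other autophagy genes (6.25%) had a promoter peak. The share of all genes there was 5.23%, so that count was near the background. In the wide one (2000 bp upstream), 9 other autophagy genes (28.1%) had a promoter peak, against 9.55% of all genes. When each peak went to its nearest gene at any distance, 2221 of all genes were called. Within 50 bp of the summit, the forkhead forms searched were found at 1 of 5 member summits, against 8.46% of main-list summits. In the 300 bp promoter they were found for 2 of 10 members, against 22.6% of all promoters. These windows differ in width, so no rise or fall is read from the counts. The conservative list, narrow window, any transcript start and nearest gene gave the same 4 members with a promoter peak. The shares of all genes were 4.15%, 5.23%, 7.93% and 11.1%, in that order. Overlap in place of summit (7.76% of all genes) and the wide window (9.55%) added atg-7. Both counted the peak with its summit 1013 bp upstream of atg-7, in a coding exon of let-70. The looser IDR (10.6% of all genes) added atg-7 and atg-18. No paired analysis was possible because both replicates belong to 1 group. Without replicate 1, epg-8 and atg-9 are not called. Unknown read depth limits what the absence of a peak can mean.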
